A study of Mus musculus with 12 samples.

Results

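A set of 10 genes of the hepatic acute phase response was followed in mouse liver: *Saa1*, *Saa2*, *Saa4*, *Orm1*, *Orm2*, *Hp*, *Lcn2*, *Apcs*, *Hamp* and *Socs3*. They were taken by name, by matching the Ensembl identifiers of the table to gene symbols, and are 10 of the 16346 genes listed. All 10 passed the filter on low values. Liver RNA was sequenced from 12-week-old mice of strain C57BL6J, either control *Med13* fl/fl mice or MED13-LKO mice, which carry the same floxed alleles plus *Alb*-Cre, a recombinase under the albumin promoter, which is used to delete genes selectively in hepatocytes. Mice were fasted for 16 h, or were refed for 4 h with normal chow and drinking water that held 30% sucrose or 30% fructose. Each of the 6 genotype and diet groups had 2 mice, which gave 12 libraries.

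The acute phase response is the change in the plasma proteins made by hepatocytes after infection, injury or other inflammation. Interleukin-6 acts through JAK kinases and STAT3, and interleukin-1 and tumour necrosis factor act through NF-kB, with C/EBP factors binding beside them at many of the promoters. Serum amyloid A, orosomucoid, haptoglobin, lipocalin-2, serum amyloid P and hepcidin are products of this response, and SOCS3 is the feedback inhibitor that switches the STAT3 signal off. Hepcidin is also set by the iron-sensing BMP and SMAD pathway.

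Promoter sequences were compared to show how close the copies of a gene are to each other and which motifs they hold. Windows of 250 bases upstream of the RefSeq start site (build GRCm38.p6) were found for 8 of the 10 members, and *Orm1* and *Hp* had no entry. They were searched on both strands for a STAT motif (TTCNNNGAA), a C/EBP motif (TTGCNNAA, or TTNNGCAA on the other strand), an NF-kB motif and the BMP-responsive motif GGCGCC. A set of 5 windows is given 5′ to 3′, those of the 3 serum amyloid A members and of *Hamp* with its copy *Hamp2*, because the results below turn on how these copies differ in level. Capitals mark the motif matches.
Saa1 (chr7:46742981-46743230, minus strand): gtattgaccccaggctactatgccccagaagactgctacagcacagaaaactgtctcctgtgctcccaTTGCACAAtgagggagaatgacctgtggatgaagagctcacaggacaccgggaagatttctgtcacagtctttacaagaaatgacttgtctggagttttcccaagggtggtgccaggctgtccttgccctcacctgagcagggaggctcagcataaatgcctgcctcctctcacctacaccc
Saa2 (chr7:46751583-46751832, plus strand): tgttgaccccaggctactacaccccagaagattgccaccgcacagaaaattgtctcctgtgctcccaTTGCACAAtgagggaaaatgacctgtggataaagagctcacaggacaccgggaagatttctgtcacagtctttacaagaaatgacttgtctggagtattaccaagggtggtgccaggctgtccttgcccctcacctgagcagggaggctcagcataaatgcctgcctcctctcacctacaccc
Saa4 (chr7:46732604-46732853, minus strand): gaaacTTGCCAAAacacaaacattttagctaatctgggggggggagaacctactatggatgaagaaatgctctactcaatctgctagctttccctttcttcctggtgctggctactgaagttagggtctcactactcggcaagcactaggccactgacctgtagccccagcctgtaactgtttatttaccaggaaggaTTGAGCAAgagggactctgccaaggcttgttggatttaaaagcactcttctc
Hamp (chr7:30944030-30944279, minus strand): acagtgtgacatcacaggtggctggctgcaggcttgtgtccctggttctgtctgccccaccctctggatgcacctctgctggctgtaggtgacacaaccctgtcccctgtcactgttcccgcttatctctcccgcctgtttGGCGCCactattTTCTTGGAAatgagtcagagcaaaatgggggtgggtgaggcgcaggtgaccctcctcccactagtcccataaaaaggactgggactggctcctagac
Hamp2 (chr7:30924182-30924431, minus strand): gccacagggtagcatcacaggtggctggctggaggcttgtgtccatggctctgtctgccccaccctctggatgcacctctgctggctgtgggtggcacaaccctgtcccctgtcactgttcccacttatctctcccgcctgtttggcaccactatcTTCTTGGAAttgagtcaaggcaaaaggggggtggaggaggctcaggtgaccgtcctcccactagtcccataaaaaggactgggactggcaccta
The *Saa1* and *Saa2* windows were identical at 238 of 249 aligned bases (95.6%), and each held 1 C/EBP match. *Saa4* was 54.3% identical to *Saa1* over the aligned bases and held 2 C/EBP matches, at bases -245 to -238 and -52 to -45 from the start site. *Hamp* and *Hamp2* were 91.9% identical, and both held the STAT match TTCTTGGAA. The BMP motif was in the *Hamp* window, at bases -109 to -104, and its letters were not in the *Hamp2* window.

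Among the 8 windows the C/EBP motif was found in 5 (*Saa1*, *Saa2*, *Saa4*, *Orm2* and *Lcn2*), against 9.56% of 32851 promoters of the same length. The *Saa1* and *Saa2* windows are near copies with the same match, TTGCACAA, so these 5 are not independent. The STAT motif was found in 3 (*Apcs*, *Hamp* and *Socs3*), against 7.02% of promoters, and the BMP motif in *Hamp* and *Socs3*, against 9.59%. The NF-kB motif, searched only as GGG and TTTCC with NN between them, was in none of the 8 and in 1.41% of promoters. Looser forms of this motif were not searched, so NF-kB sites of other forms may be present. A match is a string of letters and was not tested for binding, and the annotation lists further upstream starts that lie outside these windows for *Hamp2*, *Lcn2* and *Socs3* and inside the window for *Saa2*.

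RNA of *Med13*, the targeted gene, did not fall with the MED13-LKO label (0.22 on the log2 scale, SE 0.115, adjusted p = 0.201). Its values were 674.4 and 796.3, 577.6 and 672.6, and 606.7 and 778 in control mice that were fasted, fed sucrose and fed fructose, and 808 and 898.9, 646.4 and 717.1, and 680.6 and 1055 in the libraries labelled MED13-LKO. The values are for the whole gene, so reads from exons outside the floxed part remain in them, and the genotype label could not be checked from this gene. All 7 hepatocyte markers, *Alb* among them, passed the filter, with summed normalized counts of 1815058 to 3091757 per library. Reads on genes, estimated from the steps between low values, were between 16090000 and 24230000 per library. The normalized counts summed to 21060000 to 24150000 in control libraries and to 17310000 to 18740000 in those labelled MED13-LKO. Rescaling all libraries to the same sum moved the median genotype difference of all genes from 0.0058 to 0.32 on the log2 scale, and the feeding difference from -0.0063 to 0.1, so differences are read relative to the bulk of the genes, and calls averaged over diets or sugars that this rescaling ended are named beside their values.

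Levels between genes were compared roughly, per kilobase of the longest annotated transcript. For *Saa1* and *Saa2* this transcript has 2446 and 2443 bases, nearly the whole span of each gene. If shorter transcripts carry their reads, their values per kilobase are too low, and their places below are uncertain. On that scale *Hp* was the highest member in every library, with 28101 to 46977 normalized counts per kilobase. *Orm1* (9367 to 17010) and *Hamp* (1968 to 24680) overlapped each other, as did *Saa4* (1660 to 6979) and *Hamp*. *Apcs* lay below *Saa4* in every library, at 920 to 1501. *Orm2* (166 to 520) and *Saa1* (81.5 to 383) overlapped below it, and *Lcn2* (27.9 to 278), *Socs3* (37.1 to 95.3) and *Saa2* (12.3 to 58) had the lowest values and overlapped each other. The serum amyloid A counts of these livers were mostly *Saa4*, the constitutive member, which held 75.5% to 92.8% of the normalized counts of the 4 *Saa* genes in control libraries and 88.8% to 95.2% in those labelled MED13-LKO.

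**Figure D1:**
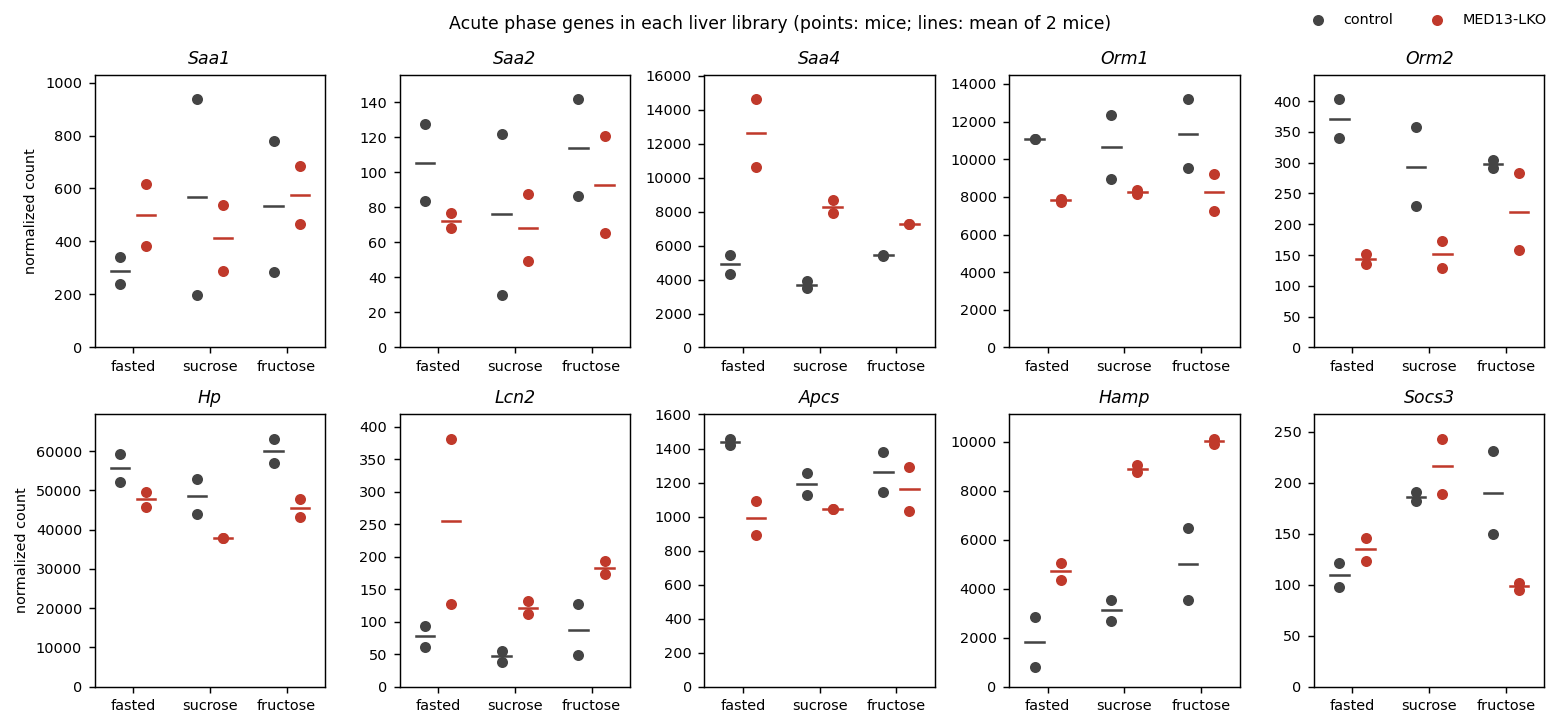
Normalized counts of the 10 acute phase genes (y axes, each from 0) in fasted, sucrose-fed and fructose-fed mice, with dark grey points for control and red points for MED13-LKO libraries and lines at the mean of 2 mice. The 6 red *Saa4* points (7245 to 14613) all lie above the 6 dark grey ones (3476 to 5463), while the *Saa1* and *Saa2* points of the genotypes overlap.

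The comparison of genotypes asks what loss of MED13 in hepatocytes does to these genes at a given diet. Averaged over the 3 diets, *Saa4*, *Lcn2* and *Hamp* were higher in the libraries labelled MED13-LKO, and *Orm1*, *Orm2*, *Hp* and *Apcs* were lower. A gene was called when its adjusted p in limma was under 0.05. This gave 7 of 10 members, against 25.3% of all genes tested, of which 12.1% were higher and 13.2% lower. *Saa1*, *Saa2* and *Socs3* were not called. The median difference of the members was -0.19 on the log2 scale, beside 0.0058 for all genes, and the members ranged from -0.93 to 1.41. With the libraries rescaled to equal sums, 4 members were called, *Saa4*, *Lcn2*, *Hamp* and *Orm2*, and 94.6% of all calls were higher in place of 47.7%.

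*Saa4*, on chromosome 7 from 46727998 to 46732603 of GRCm38 (minus strand), encodes a serum amyloid A that circulates on lipoproteins without inflammation. Control mice had *Saa4* normalized counts of 4345 and 5463 in the fasted state, 3476 and 3935 after sucrose, and 5413 and 5428 after fructose. *Saa4* in the libraries labelled MED13-LKO stood at 14613 and 10621 in the fasted state, 7915 and 8669 after sucrose, and 7278 and 7245 after fructose. No library of one genotype reached the range of the other, which held for no other member and for 3.92% of all genes in this direction and 4.93% in the other. The means were 4677 ± 875 (SD, n = 6) and 9390 ± 2848 (SD, n = 6). *Saa4* rose by 0.98 (SE 0.0859) on the log2 scale, an adjusted p of 4.22e-05, and stayed called in each of the 12 fits that left out 1 mouse. The difference was 1.35 (SE 0.149) in fasted mice, adjusted p = 0.000697, and 1.16 (SE 0.149) with sucrose, adjusted p = 0.00202. With fructose it was 0.42 (SE 0.149) and was not called, adjusted p = 0.122. Equal sums moved the fructose difference to 0.74 and called it (adjusted p = 0.00618), so that call depends on the scaling.

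*Saa1* and *Saa2*, the inducible serum amyloid A genes, lie next to each other on chromosome 7 (46740497 to 46742980 and 46751790 to 46754313). Control mice had *Saa1* normalized counts of 239.9 and 340.3 in the fasted state, 936.5 and 199.3 after sucrose, and 780.8 and 284.6 after fructose. *Saa1* in the libraries labelled MED13-LKO stood at 616.7 and 382.1 in the fasted state, 290 and 536.8 after sucrose, and 466.7 and 684 after fructose. Control mice had *Saa2* normalized counts of 83.7 and 127.5 in the fasted state, 122.2 and 30.1 after sucrose, and 141.8 and 86.28 after fructose. The highest *Saa1* value, 936.5, and the lowest, 199.3, were both from control mice fed sucrose, and the same 2 mice had *Saa2* values of 122.2 and 30.1. *Saa2* in the libraries labelled MED13-LKO stood at 76.57 and 68.05 in the fasted state, 49.31 and 87.51 after sucrose, and 65.13 and 120.6 after fructose. *Saa1* differed by 0.30 (SE 0.388, adjusted p = 0.621) and *Saa2* by -0.24 (SE 0.337, adjusted p = 0.647) between genotypes. Leaving out 1 mouse at a time moved these values from -0.074 to 0.67 and from -0.57 to 0.091, so neither had a stable direction. Of the 31-base subsequences of *Saa1*, 46.8% also occur in another gene, nearly all in *Saa2*, and the division of reads between them is uncertain. Their summed counts differed by 0.19 (SE 0.377, adjusted p = 0.75). *Saa3*, the third inducible copy, which macrophages also make, was at 63.53 to 85.26 in control libraries and 58.05 to 140.9 in those labelled MED13-LKO. *Saa3* rose by 0.38 (SE 0.117, adjusted p = 0.0376) averaged over diets and by 0.80 in fasted mice (adjusted p = 0.037). It differed by -0.25 with sucrose (adjusted p = 0.541), where both MED13-LKO libraries were below both control libraries, and by 0.60 with fructose (adjusted p = 0.109).

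The orosomucoids, acid glycoproteins of plasma that bind drugs and lipids, are encoded in a cluster on chromosome 4 with *Orm3* between them (*Orm1* at 63344560 to 63348163 and *Orm2* at 63362449 to 63365878). Control mice had *Orm1* normalized counts of 11099 and 11100 in the fasted state, 12353 and 8941 after sucrose, and 13183 and 9514 after fructose. *Orm1* in the libraries labelled MED13-LKO stood at 7900 and 7720 in the fasted state, 8157 and 8341 after sucrose, and 7260 and 9242 after fructose. Within each diet both libraries labelled MED13-LKO were below both control libraries, and over all diets the genotypes overlapped between 8941 and 9242. *Orm1* fell by 0.44 (SE 0.103) on the log2 scale, adjusted p = 0.0122, but at equal sums the difference was -0.12 and was not called (adjusted p = 0.325). Control mice had *Orm2* normalized counts of 402.8 and 339.3 in the fasted state, 358.4 and 229 after sucrose, and 290.7 and 304.1 after fructose. *Orm2* in the libraries labelled MED13-LKO stood at 152 and 135 in the fasted state, 128.7 and 173.5 after sucrose, and 157.8 and 282.8 after fructose. *Orm2* fell by 0.93 (SE 0.164), adjusted p = 0.00287, and this call held at equal sums. In fasted mice it fell by 1.36 (SE 0.284), adjusted p = 0.0174, a call that was lost when any 1 of the 4 fasted mice was left out (adjusted p up to 0.107). The differences were -0.93 (adjusted p = 0.0888) with sucrose and -0.49 (adjusted p = 0.338) with fructose. Of the 31-base subsequences of *Orm2*, 34.09% occur in another gene and 27.52% occur in *Orm1*. *Orm3*, the third copy, varied from 29.85 to 172.7 with no call (0.47, SE 0.407, adjusted p = 0.446), and the 3 copies summed fell by 0.44 (adjusted p = 0.0109).

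*Hp* encodes haptoglobin, which captures free haemoglobin, and *Apcs* encodes serum amyloid P, the pentraxin that is the main acute phase pentraxin of the mouse. Control mice had *Hp* normalized counts of 52049 and 59289 in the fasted state, 44088 and 53008 after sucrose, and 56950 and 63184 after fructose. *Hp* in the libraries labelled MED13-LKO stood at 49507 and 45893 in the fasted state, 37796 and 37864 after sucrose, and 47794 and 43171 after fructose. Within each diet both libraries labelled MED13-LKO were below both control libraries. *Hp* fell by 0.33 (SE 0.0675), adjusted p = 0.00655, 0.798-fold, and was not called at equal sums (-0.0088, adjusted p = 0.911). Control mice had *Apcs* normalized counts of 1421 and 1458 in the fasted state, 1127 and 1255 after sucrose, and 1379 and 1144 after fructose. *Apcs* in the libraries labelled MED13-LKO stood at 1094 and 893.7 in the fasted state, 1043 and 1042 after sucrose, and 1034 and 1292 after fructose. *Apcs* fell by 0.28 (SE 0.0792), adjusted p = 0.026, and at equal sums its difference was 0.032 (adjusted p = 0.72). Of the 12 fits that left out 1 mouse, 4 kept the call, those without the first control mouse on sucrose, the second control mouse on fructose, the first fasted MED13-LKO mouse or the second MED13-LKO mouse on fructose, and the adjusted p ran from 0.0139 to 0.0692. The fasted mice differed most, by -0.54 (SE 0.137, adjusted p = 0.0372), and this call was lost in a fit of the fasted groups alone (adjusted p = 0.0504), with replicate number blocked (adjusted p = 0.0548), at equal sums (adjusted p = 0.249), and without either fasted control mouse (0.134 and 0.155), the second fasted MED13-LKO mouse (0.221) or either MED13-LKO mouse on sucrose (0.0595).

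*Lcn2*, on chromosome 2 from 32384633 to 32388252, encodes lipocalin-2, which withholds iron from bacteria by binding their siderophores. Control mice had *Lcn2* normalized counts of 60.73 and 94.23 in the fasted state, 55.7 and 38.28 after sucrose, and 48.55 and 127.6 after fructose. *Lcn2* in the libraries labelled MED13-LKO stood at 382 and 127 in the fasted state, 111.4 and 131.5 after sucrose, and 173.4 and 193.8 after fructose. Within each diet both libraries labelled MED13-LKO were above both control libraries, and over all diets the control value of 127.6 exceeded the MED13-LKO values of 127 and 111.4. The first fasted MED13-LKO library, at 382, was the highest. *Lcn2* rose by 1.37 (SE 0.305) on the log2 scale, adjusted p = 0.00911, and remained called in each fit that left out 1 mouse, with values of 1.11 to 1.63. No single diet gave a call: the differences were 1.53 when fasted (adjusted p = 0.1), 1.37 with sucrose (adjusted p = 0.168) and 1.21 with fructose (adjusted p = 0.203). Leaving out the first or the second fasted MED13-LKO mouse moved the fasted difference to 0.74 or 2.32, and the second was called (adjusted p = 0.0481). Leaving out the first or the second control mouse on fructose moved the fructose difference to 0.52 or 1.90. Equal sums called the fasted difference (adjusted p = 0.0248), and a fit of the sucrose groups alone called the sucrose difference (adjusted p = 0.0443). Neutrophils and macrophages also make lipocalin-2. The summed count of 7 neutrophil markers, of which 2 passed the filter and *Ly6g* was not in the table, was 23.3 to 54.4 in control libraries and 39.3 to 93.7 in those labelled MED13-LKO, with no marker called. The sum of 8 Kupffer cell markers was 3743 to 5345 and 4958 to 6687, with 2 markers higher, and that of 4 monocyte markers was 94 to 132 and 124 to 185, with 1 of the 2 tested higher. In the main fit 12.1% of all genes were called higher. At equal sums all 8 Kupffer cell markers, both tested monocyte markers and 1 of the 2 tested neutrophil markers were higher. At that scaling 7514 of the 12366 genes tested were called, and 94.6% of these calls were higher. The part of these cells in the *Lcn2* and *Saa3* differences was not tested, and in whole liver more cells of a type and more RNA per cell cannot be told apart.

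*Hamp*, on chromosome 7 from 30942368 to 30944032, encodes hepcidin, the hormone that blocks iron export by ferroportin. Control mice had *Hamp* normalized counts of 807 and 2842 in the fasted state, 3542 and 2699 after sucrose, and 6485 and 3544 after fructose. *Hamp* in the libraries labelled MED13-LKO stood at 4369 and 5064 in the fasted state, 9044 and 8758 after sucrose, and 9903 and 10119 after fructose. Within each diet both libraries labelled MED13-LKO were above both control libraries. The lowest value, 807, and a spread of 807 to 2842 were seen in the fasted control mice. *Hamp* rose by 1.41 (SE 0.269) on the log2 scale, a 2.65-fold difference with an adjusted p of 0.00437, and was called in all 12 fits that left out 1 mouse. Within single diets it was not called, at 1.63 (adjusted p = 0.0579) when fasted, 1.52 (adjusted p = 0.0902) with sucrose and 1.06 (adjusted p = 0.205) with fructose. The fasted one was 0.73 without the first fasted control mouse and 2.54, and called, without the second (adjusted p = 0.00309). It was also called without either control mouse on fructose (adjusted p = 0.0428 and 0.0427), and those with sucrose and with fructose were called without either fasted control mouse (adjusted p = 0.0104 each with sucrose, 0.0367 and 0.0366 with fructose). The fructose one was 0.63 without the second control mouse on fructose. Equal sums called all 3 (adjusted p from 0.0103 to 0.0444), and a fit of the sucrose groups alone called that with sucrose (adjusted p = 0.00439).

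Its neighbour *Hamp2* (30922372 to 30924681) encodes a second hepcidin that mice carry. Control mice had *Hamp2* normalized counts of 354.2 and 198.5 in the fasted state, 529.8 and 179.2 after sucrose, and 120.8 and 283.6 after fructose. *Hamp2* in the libraries labelled MED13-LKO stood at 3596 and 2029 in the fasted state, 2523 and 3891 after sucrose, and 3354 and 1921 after fructose. No library of one genotype reached the range of the other. *Hamp2* rose by 3.48 (SE 0.328) on the log2 scale, 11.2-fold, adjusted p = 6.57e-05, and was called in every diet, at 3.34 when fasted (adjusted p = 0.00682), 3.34 with sucrose (adjusted p = 0.00902) and 3.77 with fructose (adjusted p = 0.00406). It held 1.83% to 30.5% of the summed *Hamp* and *Hamp2* counts in control libraries and 16% to 45.1% in those labelled MED13-LKO. *Hamp* shares 33.68% of its 31-base subsequences with *Hamp2*, so how reads were split between the copies is uncertain. The sum does not depend on the split: it rose by 1.72 (SE 0.221), 3.29-fold, adjusted p = 0.00048, and was called in fasted mice (4-fold, adjusted p = 0.0116) and with sucrose (3.53-fold, adjusted p = 0.0233) but not with fructose (2.51-fold, adjusted p = 0.0657).

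**Figure D2:**
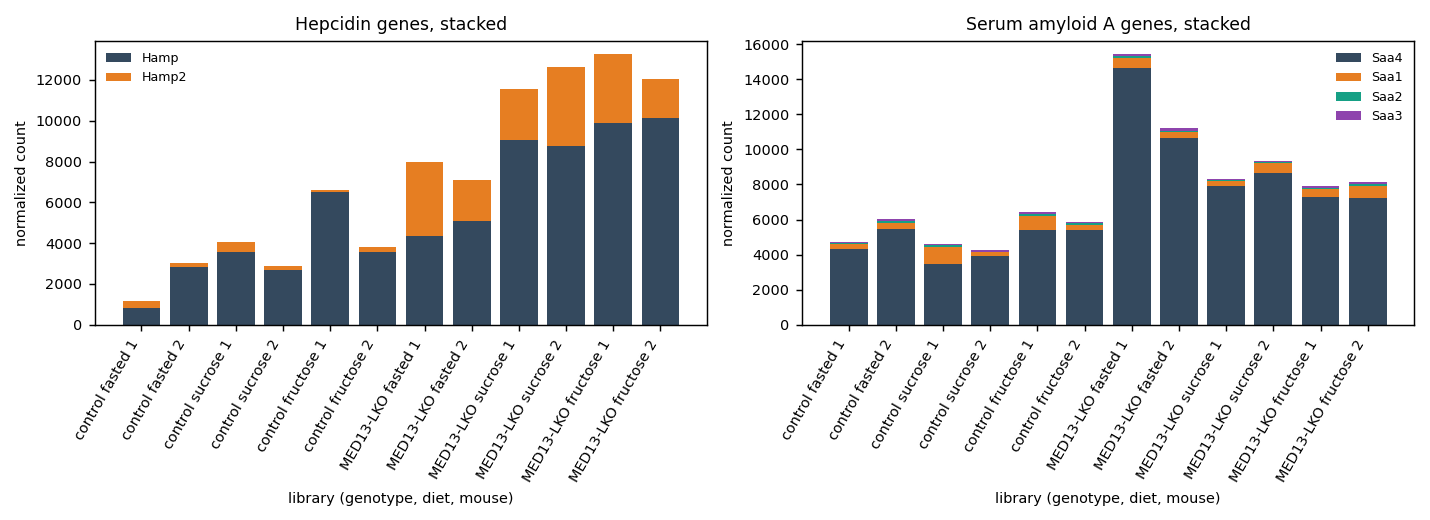
Stacked normalized counts (y axis) of the hepcidin genes (left) and of the serum amyloid A genes (right) in each of the 12 libraries (x axis). The orange *Hamp2* part is 120.8 to 529.8 in control libraries and 1921 to 3891 in those labelled MED13-LKO, and the serum amyloid bars are mostly *Saa4*.

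*Socs3*, on chromosome 11 from 117966079 to 117970047, encodes the inhibitor that binds JAK kinases and the interleukin-6 receptor after STAT3 has induced it. Control mice had *Socs3* normalized counts of 121.8 and 97.41 in the fasted state, 181.8 and 190.8 after sucrose, and 231.3 and 149.5 after fructose. *Socs3* in the libraries labelled MED13-LKO stood at 123.8 and 146.3 in the fasted state, 188.7 and 243.3 after sucrose, and 94.63 and 102 after fructose. Both fructose-fed libraries labelled MED13-LKO were below every other fed library and among the 3 lowest of all 12. Averaged over diets the genotypes differed by -0.14 (SE 0.13, adjusted p = 0.486). With fructose *Socs3* fell by 0.91 (SE 0.225), adjusted p = 0.0365, whereas the differences were 0.30 when fasted (adjusted p = 0.44) and 0.20 with sucrose (adjusted p = 0.681). The fasted difference was 0.64 at equal sums and was called there (adjusted p = 0.0433). The fructose call was lost in a fit of the fructose groups alone (adjusted p = 0.181), with replicate number blocked (adjusted p = 0.0534), at equal sums (adjusted p = 0.0626) and in 7 of the 12 fits that left out 1 mouse. These were the fits without either control mouse on sucrose, either fasted MED13-LKO mouse, either MED13-LKO mouse on fructose, or the first control mouse on fructose, whose absence moved the difference to -0.60 (adjusted p = 0.176). Over 7 alternatives other than leaving out mice or crossing the replicate numbers, its adjusted p ranged from 0.0372 to 0.181.

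Within single diets fewer members were called. In fasted mice these were *Saa4*, *Orm2* and *Apcs*, 3 of 10 against 8.98% of all genes. All 10 members had fasted libraries that did not overlap between genotypes, 5 higher and 5 lower in MED13-LKO, where 28.9% of all genes were separate and higher and 28.1% separate and lower. With sucrose *Saa4* was called, 1 of 10 against 6.03% of all genes. There 3 members were separate and higher (26% of all genes) and 4 separate and lower (27.2%). With fructose *Socs3* was called, 1 of 10 against 7.69%, and 3 were separate and higher (25% of all genes) and 4 separate and lower (25.2%). The *Saa4* difference ranged from 0.42 to 1.35 over the diets, and that of *Hamp* from 1.06 to 1.63.

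**Figure D3:**
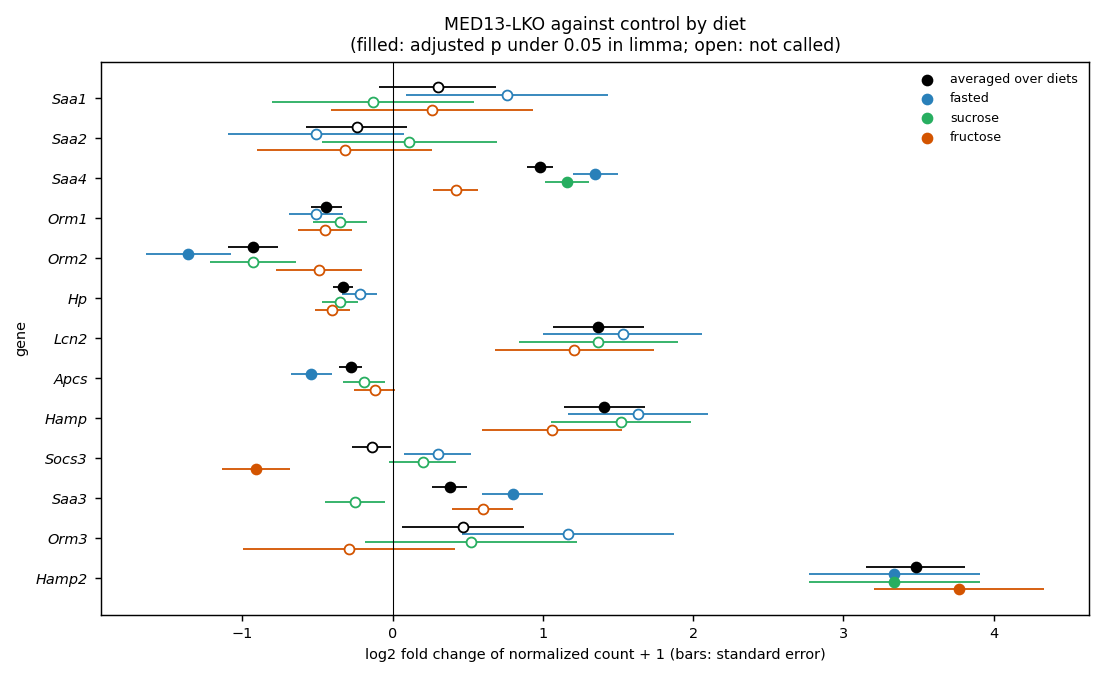
Log2 fold changes (x axis, of the normalized count plus 1) of MED13-LKO against control for the 10 members and the copies *Saa3*, *Orm3* and *Hamp2* (y axis), averaged over diets in black and by diet in colours, with standard errors as bars and filled points for adjusted p under 0.05. *Hamp2* lies farthest to the right at 3.48, and the fructose points of *Socs3* (-0.91) and *Saa4* (0.42) lie to the left of their fasted and sucrose points (0.30 and 0.20, and 1.35 and 1.16).

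Refed mice were compared with fasted mice to see which of these genes differ after 4 h of chow with a sugar. By the paper's methods fed mice were killed later in the day than fasted mice. Feeding and clock time therefore cannot be told apart in these comparisons. Averaged over sugars and genotypes, *Hamp* and *Socs3* rose and *Saa4* fell, 3 of 10 members against 21.8% of all genes, of which 10.7% were higher and 11% lower. *Hamp* rose by 1.17 (SE 0.285, adjusted p = 0.0165), *Socs3* by 0.44 (SE 0.138, adjusted p = 0.0467), and *Saa4* fell by 0.40 (SE 0.0911, adjusted p = 0.0122). The median of the members was -0.029, beside -0.0063 for all genes. The *Hamp* difference was 0.72 without the first fasted control mouse and still called, its call was lost without the first fasted MED13-LKO mouse (adjusted p = 0.0616), and the *Saa4* call without the second fasted control mouse (adjusted p = 0.0629). The *Socs3* call was kept in 2 of the 12 fits that left out 1 mouse, those without the second control mouse on fructose or the first MED13-LKO mouse on sucrose, with adjusted p from 0.0118 to 0.176, and neither the fit of unfiltered genes (0.0597) nor that with replicate number blocked (0.063) called it. *Hamp* and *Hamp2* summed rose by 0.93 (SE 0.235, adjusted p = 0.0191), while *Hamp2* itself differed by -0.044 (adjusted p = 0.943).

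In the control mice no member was called for either sugar, against 8.57% of all genes for sucrose and 5.6% for fructose, and 2 members had an unadjusted p under 0.05 in limma for each. Of the 12366 genes tested, 3039 had such a p for sucrose and 2829 for fructose. *Socs3* was 0.77 higher with sucrose (SE 0.225, adjusted p = 0.0639) and 0.77 higher with fructose (adjusted p = 0.0787), with both fed values above both fasted ones each time. *Hamp* was 1.03 higher with sucrose (SE 0.466, adjusted p = 0.206) and 1.66 higher with fructose (adjusted p = 0.0684). Without the first fasted control mouse, at 807, these *Hamp* values were 0.12 and 0.75, and without the second they were 1.94 and 2.57 and both were called (adjusted p = 0.012 and 0.0102). The fructose difference of *Hamp* was also called without the second control mouse on fructose (adjusted p = 0.0449) and at equal sums (adjusted p = 0.0418). Those of *Socs3* were called at equal sums (adjusted p = 0.0271 and 0.0373), with sucrose also without either control mouse on fructose (adjusted p = 0.03 and 0.0292), and with fructose also without the second of them (adjusted p = 0.0205). The 2 sugar comparisons of a genotype share its fasted mice. *Saa4* was -0.40 with sucrose (adjusted p = 0.134) and 0.15 with fructose (adjusted p = 0.579).

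In the MED13-LKO mice *Saa4* was the member called for each sugar, 1 of 10 against 5.71% of all genes for sucrose and 6.53% for fructose. It fell by 0.59 with sucrose (SE 0.149, adjusted p = 0.0489) and by 0.78 with fructose (SE 0.149, adjusted p = 0.0169), from fasted values of 14613 and 10621. The sucrose call was lost under 6 of the 7 alternatives other than leaving out mice (adjusted p from 0.0458 to 0.0765). It was kept in 3 of the 12 fits that left out 1 mouse, those without either fasted control mouse or the second fasted MED13-LKO mouse. Without the first fasted MED13-LKO mouse the 2 values were -0.36 (adjusted p = 0.227) and -0.55 (adjusted p = 0.0843), and the fructose call was also lost without either MED13-LKO mouse on fructose (adjusted p = 0.0511 and 0.126) and in a fit of the compared groups alone (adjusted p = 0.0534). *Saa3* fell by 1.08 with sucrose (adjusted p = 0.0146). *Hamp* was 0.92 higher with sucrose (adjusted p = 0.298) and 1.09 higher with fructose (adjusted p = 0.198). Fits of the compared groups alone called both *Hamp* differences (adjusted p = 0.00463 and 0.00993), and that with fructose was also called without either fasted control mouse (adjusted p = 0.0378 each). *Socs3* was 0.67 higher with sucrose (adjusted p = 0.12) and -0.45 with fructose (adjusted p = 0.263), where both fed values, 94.63 and 102, were below both fasted values, 123.8 and 146.3.

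**Figure D4:**
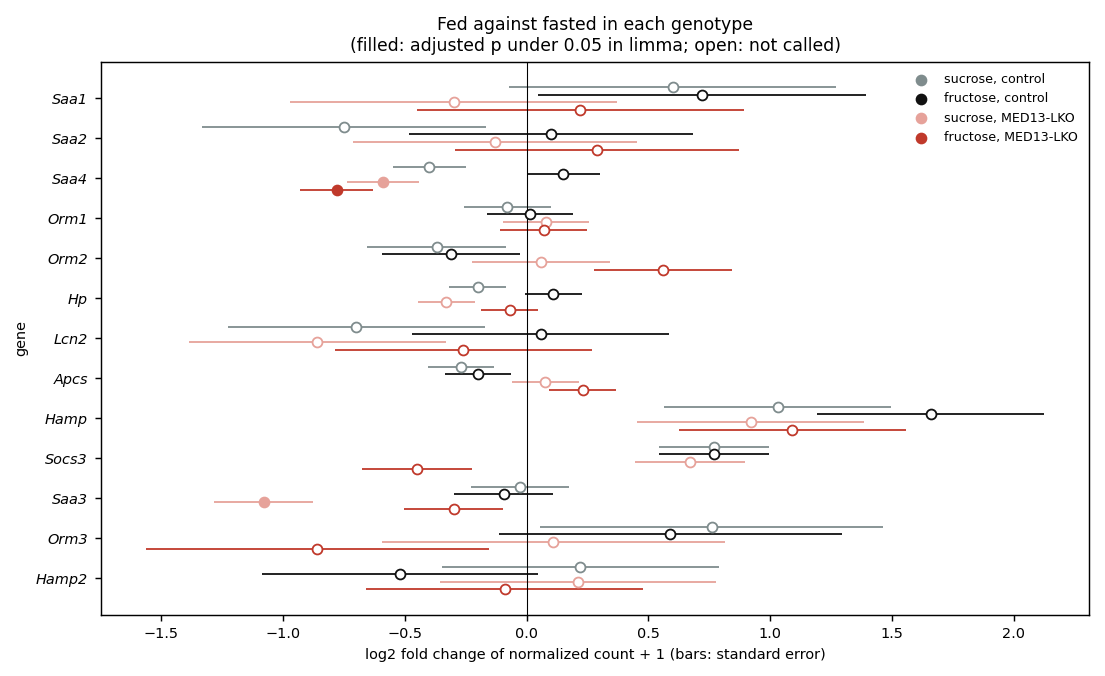
Log2 fold changes (x axis, of the normalized count plus 1) of sugar-fed against fasted mice for the 10 members and 3 copies (y axis), in grey and black for control and in pink and red for MED13-LKO mice, with standard errors as bars and filled points for adjusted p under 0.05. *Saa4* has the filled points among the members (-0.59 and -0.78 in MED13-LKO), and *Socs3* has 3 points to the right of 0 and 1 to the left (-0.45, fructose in MED13-LKO).

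Fructose-fed mice were also set against sucrose-fed mice, and the response to each sugar against that of the other genotype. No member was called for fructose against sucrose in either genotype, where 0.0404% of all genes were called in each, and 2 members had an unadjusted p under 0.05 in limma in each. Such a p was seen for 1061 of the 12366 genes tested in control mice and for 951 in MED13-LKO mice. *Socs3* in the MED13-LKO mice was 1.12 lower with fructose than with sucrose (SE 0.225, adjusted p = 0.211), and *Saa4* in the control mice was 0.55 higher (SE 0.149, adjusted p = 0.377). *Hp* was the other of the 2 members in each genotype. With fructose it was 0.31 higher in control mice (SE 0.117, adjusted p = 0.499) and 0.26 higher in MED13-LKO mice (SE 0.117, adjusted p = 0.64). No response differed between genotypes past the threshold, for sucrose (0.146% of all genes called, no member with an unadjusted p under 0.05) or fructose (0.0243% of all genes, 2 members). Of all 12366 genes, 1055 had an unadjusted p under 0.05 in limma for sucrose and 1170 for fructose. The fructose response of *Socs3* was 1.22 lower in MED13-LKO than in control mice (SE 0.318, adjusted p = 0.322), and that of *Saa4* was 0.93 lower (SE 0.21, adjusted p = 0.242). The genotype difference of *Socs3* with fructose is thus not shown to differ from that in fasted mice. Whether it differs from that with sucrose was not tested.

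The genes most like each member over the 12 libraries were named by Pearson's r on the log2 scale, as a description. Libraries of one genotype and diet share much of any such pattern. For *Socs3* these were *Cish* (0.879), *Myc* (0.878) and *Phlda1* (0.877), of which *Cish* encodes another inhibitor of the SOCS family. For *Saa4* they were *Fgf1* (0.952), *Tcf12* (0.944) and *Acot1* (0.936), and for *Hamp* they were *Rere* (0.958), *Spats2* (0.93) and *Msh6* (0.926). *Lcn2* was most like *Hcls1* (0.922), a gene of blood cells, and then *Ahdc1* and *Camk2b* (0.911 each). *Orm1* was most like *Nme1* (0.93) and *Mup2* (0.913), *Orm2* like *Slfn5* (0.958), *Hp* like *Vtn* (0.928), and *Apcs* like *Hspd1* (0.896). *Saa1* and *Saa2* had no gene above 0.836. Among the members themselves r was 0.852 for *Orm1* with *Orm2*, 0.851 for *Saa4* with *Lcn2*, 0.681 for *Saa1* with *Saa2*, and -0.777 for *Saa4* with *Orm2*.

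Other positive acute phase proteins moved in both directions between the genotypes: of 22 tested, 4 rose and 10 fell (12.1% and 13.2% of all genes), with a median of -0.057. *Pigr*, the polymeric immunoglobulin receptor, fell by 1.19 (SE 0.0672, adjusted p = 2.22e-06), and its control values, 21893 to 26500, lay above the MED13-LKO values, 7669 to 12306. *Serpina3n*, a protease inhibitor, fell by 0.76 (adjusted p = 3.48e-05), and *Fth1*, ferritin heavy chain, fell by 0.35 (adjusted p = 0.00253). *Lbp*, which binds bacterial lipopolysaccharide, rose by 0.48 (adjusted p = 0.00237). At equal sums 13 of this list were higher and 2 lower, and the *Fth1* call was lost. Among all genes 7514 were called at that scaling, and 94.6% of these calls were higher. After feeding none rose and 7 fell (10.7% and 11% of all genes), led by the metallothioneins *Mt2* (-3.99, adjusted p = 2.09e-05) and *Mt1* (-2.68, adjusted p = 0.00011), then *Lbp* (-0.58, adjusted p = 0.00149) and *Cp*, ceruloplasmin (-0.27, adjusted p = 0.00842). At equal sums 2 rose and 4 fell after feeding, and *Cp* was no longer called. The feeding calls among all genes were then 3073, of which 76.8% were higher.

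Genes listed as negative acute phase proteins, which hepatocytes make less of in inflammation, fell in 8 and rose in 1 of 10 tested (13.2% and 12.1% of all genes), with a median of -0.44. The list also held *Serpina1c*, an alpha-1-antitrypsin gene, which is not generally counted in that class. The member that rose, named after its values were seen, was *Serpina6*, corticosteroid-binding globulin (0.55, SE 0.118, adjusted p = 0.00732). *Ahsg* and *Igf1* each fell by 0.65 (adjusted p = 4.26e-05 and 4.54e-05), and *Fetub* and *Ttr*, the thyroxine carrier transthyretin, each fell by 0.44 (adjusted p = 0.000193 and 0.00054). At equal sums 2 of the list were lower and 2 higher, and *Fetub* and *Ttr* were no longer called. Of the 7514 calls among all genes at that scaling, 94.6% were higher. The 7 hepatocyte markers, 3 of which (*Alb*, *Apoa1* and *Ttr*) are in this list, summed to 2353858 to 3091757 in control libraries and 1815058 to 2216681 in those labelled MED13-LKO, with 5 of 7 lower. The part of hepatocyte content or of scaling in these falls, and in those of *Orm1*, *Hp* and *Apcs*, was not tested beyond the rescaling to equal sums. After feeding 1 of the 10 fell (11% of all genes), *Fetub* (-0.25, adjusted p = 0.00754), and none was called at equal sums.

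Genes of interleukin-6 and STAT3 signalling included 17 tested of 20 listed, and *Il6* itself was not among the genes analysed. None rose and 3 fell between genotypes (12.1% and 13.2% of all genes): *Cish* by 1.03 (SE 0.179, adjusted p = 0.00273), *Stat3* by 0.20 (adjusted p = 0.0443) and *Myc* by 1.18 (adjusted p = 0.0445). At equal sums *Cish* stayed called, *Stat3* turned to 0.11 (adjusted p = 0.19) and *Myc* was not called (adjusted p = 0.0628), while 6 of the list were higher. Of the 7514 calls among all genes at that scaling, 94.6% were higher. *Cish*, like *Socs3*, was low in the fructose-fed MED13-LKO mice. Its counts in fructose-fed mice were 910.1 and 583.5 in control and 128.6 and 66.11 in MED13-LKO, a fall of 2.97 (SE 0.311, adjusted p = 0.000521), and with sucrose they were 980.2 and 669.8 against 612.4 and 675.6 (-0.33, adjusted p = 0.609). Fasted values were 103.5 and 129.5, and 132 and 139. *Cish* is not specific to interleukin-6 signalling, and which signal its values follow was not tested. After feeding 3 of the list rose and 5 fell (10.7% and 11% of all genes), with *Cish* at 1.78 (adjusted p = 0.000231), *Bcl3* at 1.25 (adjusted p = 5.29e-05), the interleukin-6 receptor gene *Il6ra* at -1.50 (adjusted p = 0.000568) and *Pim3* at -1.57 (adjusted p = 0.000901).

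Of 15 tested genes of interleukin-1, tumour necrosis factor and NF-kB signalling, 5 rose and 1 fell between genotypes (12.1% and 13.2% of all genes). With equal sums 11 were higher and none lower. Among all genes 7514 were called at that scaling, and 94.6% of these calls were higher. *Nfkb1* rose by 0.45 (adjusted p = 0.00114), the chemokine gene *Cxcl1* by 0.98 (adjusted p = 0.00516) and the NF-kB inhibitor gene *Tnfaip3* by 0.61 (adjusted p = 0.0104), and *Il1rap*, the interleukin-1 receptor accessory protein, fell by 0.38 (adjusted p = 0.00135), a call that was lost at equal sums. After feeding, where 10.7% of all genes rose and 11% fell, 1 of the list rose, *Il1b* (1.71, adjusted p = 0.00241), and 3 fell, *Il1r1* (-1.34, adjusted p = 0.000258), *Nfkbia* (-1.01, adjusted p = 0.00113) and *Il1rap* (-0.20, adjusted p = 0.0475), whose call was lost at equal sums and at equal 75th percentiles. *Tnf* and *Ccl2* were under the filter. Of the 8 C/EBP and other hepatocyte factors, none rose and 3 fell between genotypes (12.1% and 13.2% of all genes), *Cebpa* by 0.21 (adjusted p = 0.0248), *Foxa2* by 0.49 (adjusted p = 0.0256) and *Cebpb* by 0.57 (adjusted p = 0.0282). All 3 of these calls were lost at equal sums, where *Cebpa* turned to 0.10, 3 of the list were higher and none was lower. After feeding 4 of the 8 rose and 3 fell (10.7% and 11% of all genes), with *Cebpd* at -1.56 (adjusted p = 6.73e-05), *Cebpb* at -1.38 (adjusted p = 0.000569), *Foxa2* 2.36-fold higher (adjusted p = 0.000397) and *Cebpa* at 0.71 (adjusted p = 6.95e-05).

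Among 17 genes of hepcidin and iron regulation, 2 rose and 2 fell between genotypes (12.1% and 13.2% of all genes). *Id1* and *Smad6*, targets of BMP signalling, rose by 0.84 (SE 0.244, adjusted p = 0.0304) and 0.37 (SE 0.113, adjusted p = 0.0358). *Tmprss6*, the protease that restrains hepcidin, fell by 0.25 (adjusted p = 0.00135) and *Tfr2*, an iron sensor, by 0.35 (adjusted p = 0.00318). At equal sums 13 of the list were higher, *Tmprss6* turned to 0.066 (adjusted p = 0.223) and *Tfr2* was not called. Of the 7514 calls among all genes at that scaling, 94.6% were higher. After feeding 2 rose and 6 fell (10.7% and 11% of all genes): the ligand gene *Bmp2* was at -0.62 (adjusted p = 0.00146), the ferroportin gene *Slc40a1* at -0.42 (adjusted p = 0.00151), *Creb3l3* at -0.31 (adjusted p = 0.00305), and the BMP coreceptor gene *Hjv* at 0.35 (adjusted p = 0.006). *Bmp2* is made by liver endothelium, and 5 endothelial markers summed to 3465 to 4743 in fasted and 3036 to 3954 in fed libraries, with 1 of 5 lower after feeding. Between genotypes the same 5 markers summed to 3036 to 3528 in control and 3471 to 4743 in MED13-LKO libraries, with 3 of 5 higher, and all 5 at equal sums. Their part in the differences of *Bmp2*, *Id1* and *Smad6* was not tested.

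**Figure D5:**
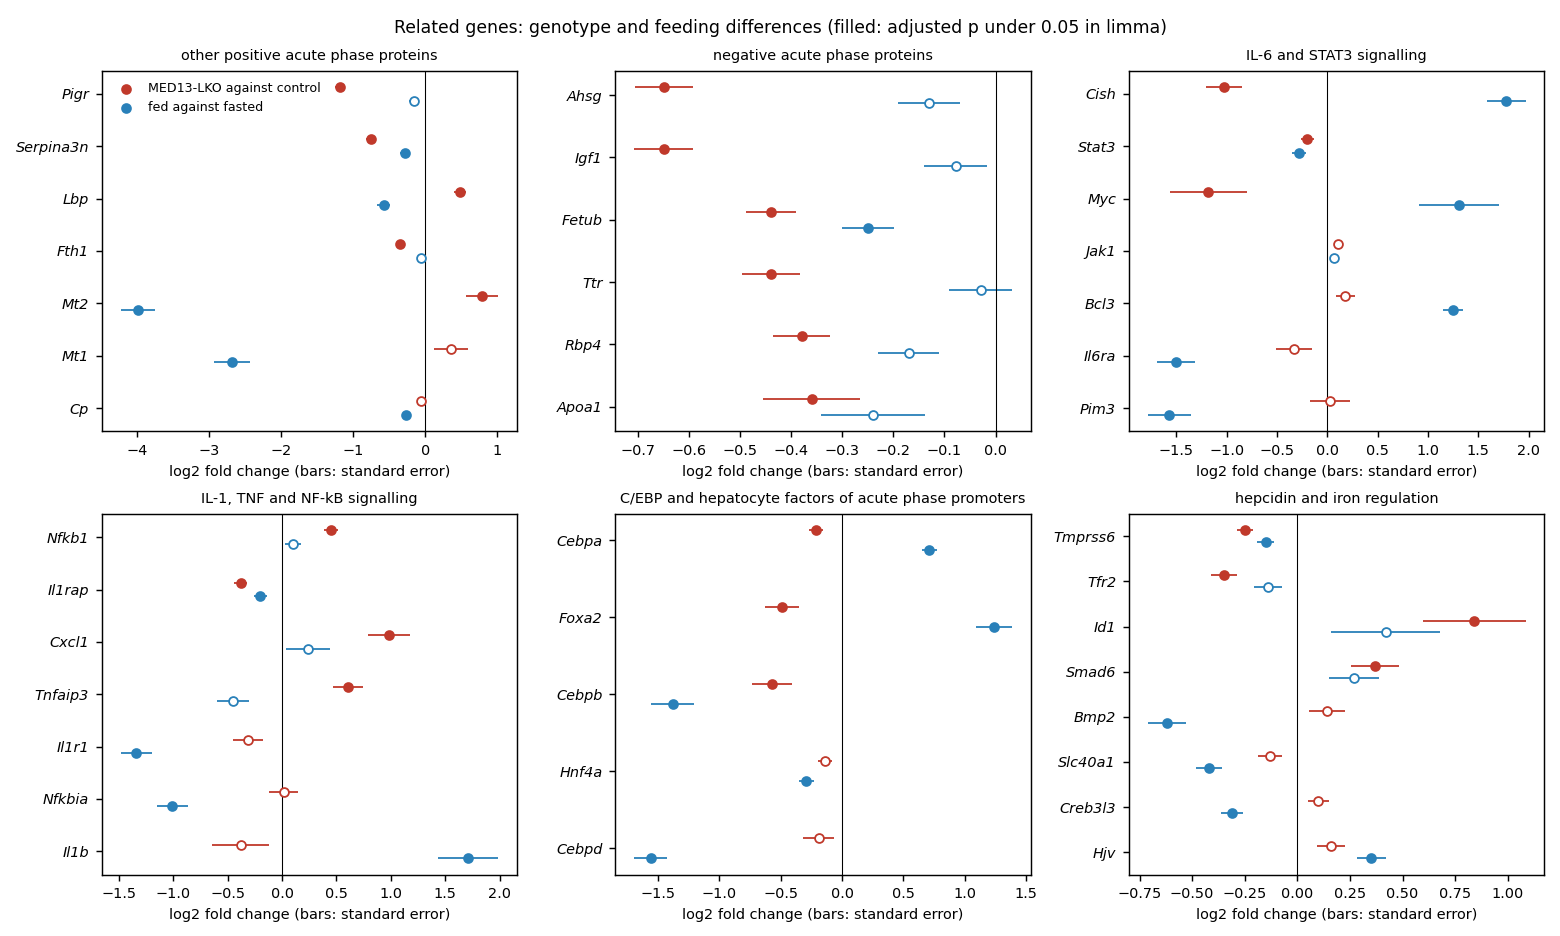
Log2 fold changes (x axes, of the normalized count plus 1) of genes named from 6 related lists (y axes), with MED13-LKO against control in red, fed against fasted in blue, standard errors as bars and filled points for adjusted p under 0.05. The negative acute phase proteins drawn lie to the left of 0 in red (-0.65 to -0.36), and *Mt2* and *Mt1* lie far to the left in blue (-3.99 and -2.68).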

How the data were processed

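Liver RNA-seq libraries of 12 mice were used, grouped by the genotype and diet in their titles, with 2 mice in each of 6 groups. No source states that replicates were handled separately beyond being different samples, so p-values measure the spread between these libraries. The authors trimmed reads with Trim Galore 0.6.5, estimated counts with kallisto 0.46.0, normalized them with DESeq2 1.24.0 and deposited these normalized counts, a signal that is not whole, for 16346 genes. The submitters' notes name the build mm10. Because whole reads were not recovered for all genes, no count test was run.

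A log2 scale with a pseudocount of 1 was used for the 12366 genes whose mean normalized count reached 10. Means of the 6 groups were fitted to all of them in limma 3.58.1 (R 4.3.3) with trended empirical Bayes variances. A gene was called at a Benjamini-Hochberg adjusted p under 0.05, taken over every gene in the fit. Fold changes on this scale understate the changes of low genes. The members, their copies and the related lists were chosen with earlier results of these data known. The genes named were all members, their copies, and, from each related list, up to 4 genes with the lowest adjusted p for the genotype and for the feeding comparison, each averaged over the other factor. For likeness, the 3 genes with the highest r were ranked for each member. Positions and sequence sharing come from GENCODE M21 on GRCm38, and promoters from RefSeq on GRCm38.p6. Alternatives were pseudocounts of 0.1 and 10, no filter, a replicate block, scaling to equal 75th percentiles, fits of the compared groups only, summed copies and leaving out each mouse. Equal sums and a crossed block were added after the data were seen.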

Additional observations from a re-analysis of the deposited data

How the results depend on the processing

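Of the genotype calls averaged over diets, *Saa4*, *Orm2*, *Lcn2* and *Hamp* held under every alternative run, and *Orm1* and *Hp* under all but equal sums. Equal sums gave 4 called members in place of 7 for the genotypes averaged over diets, 5 in place of 3 in fasted mice, 2 in place of 1 with sucrose and with fructose, 1 in place of 0 for sucrose and 2 in place of 0 for fructose in control mice, and 0 in place of 1 for sucrose in MED13-LKO mice. Over all genes, calls between genotypes went from 3127 to 7514 averaged over diets and from 1110 to 4147 in fasted mice. They went from 746 to 2242 with sucrose and from 951 to 3465 with fructose. Against fasted mice, calls in control mice went from 1060 to 1306 for sucrose and from 692 to 866 for fructose. Those for sucrose in MED13-LKO mice went from 706 to 596. Fits of only the compared groups gave 3 with sucrose and 0 with fructose between genotypes. For sucrose in MED13-LKO mice, a pseudocount of 0.1, no filter, equal 75th percentiles and the replicate block each gave 0 in place of 1.

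Directions that turned, of differences not called except that of *Apcs*, were the following. At equal sums the genotype differences of *Saa2*, *Apcs* and *Socs3* became 0.073, 0.032 and 0.18, and the feeding differences of *Orm2* and *Apcs* became 0.091 and 0.065. With summed copies *Saa2* became 0.19 between genotypes and 0.22 after feeding, and *Orm2* became 0.019 after feeding.

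Leaving out 1 mouse at a time gave 6 to 7 called members between genotypes averaged over diets, 1 to 4 in fasted mice, 1 to 2 with sucrose and 0 to 2 with fructose. Sugar against fasted mice gave 0 to 1 (sucrose) and 0 to 2 (fructose) in control mice, 0 to 1 and 0 to 2 in MED13-LKO mice, and 1 to 3 averaged. The genotype differences ranged from -0.074 to 0.67 for *Saa1* and from -0.57 to 0.091 for *Saa2*, and the feeding differences from -0.37 to 0.12 for *Saa2*, -0.038 to 0.079 for *Orm1*, -0.12 to 0.089 for *Orm2* and -0.11 to 0.031 for *Apcs*. With 1 mouse left in a group, that mouse was assumed to vary like the other groups.

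Replicate numbers are those of the sample titles, and the columns of the table number the fed mice otherwise. Mice with the same title number did not deviate together (r from -0.142 to 0.0782 between groups), so the number was not taken as a pairing. With the replicate number as a block, 0 members in place of 1 were called between genotypes with fructose, and with the fructose numbers crossed, 2. Equal sums and the crossed block were chosen after seeing the data. Member results under single alternatives were tallied for the averaged comparisons. Those of other comparisons were tallied when called in the main fit or under an alternative other than equal sums or leaving out a mouse. In this tally 540 stayed on their side of the threshold with the same direction, 66 were no longer past it, 17 came past it and 21 changed sign. Results outside it also gained calls or changed sign, so it does not cover every change. Groups of 2 mice limit every comparison within a diet.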
